A study of Mus musculus with 8 samples.

Results

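The genes described here are 10 genes that specify or mark the neurons of the deep cortical layers: Fezf2, Bcl11b, Sox5, Tbr1, Tle4, Foxp2, Ldb2, Crym, Zfpm2 and Hs3st4. They were named by symbol, and all 10 were found among the 27179 genes of the count matrix. The counts come from RNA sequencing of the embryonic mouse cerebral cortex, in which Taf8-deleted embryos (labelled Taf8 -/lox) were compared with Taf8-intact embryos (labelled Taf8 +/+), with 4 embryos and 1 library per embryo in each group. The product of Taf8 is part of TFIID, a complex that binds core promoters and brings RNA polymerase II to them. The labels give neither the embryonic stage nor the recombinase that acts on the lox allele, nor whether the intact embryos carried that recombinase.

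Excitatory neurons of the cortex are born in sequence from radial glia, those of the deep layers 6 and 5 before those of the upper layers. Layer 6 neurons mainly send axons to the thalamus, many layer 5 neurons send theirs to the midbrain, brainstem and spinal cord, and most upper-layer neurons connect the hemispheres through the corpus callosum. These fates are held apart by transcription factors that repress one another: Fezf2 promotes the subcerebral fate and acts with Bcl11b (also called Ctip2), and Tbr1 and Sox5 restrain Fezf2 in layer 6 and subplate neurons. Fezf2 is also made in radial glia.

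Total counts were between 39590959 and 44788200 per library. Taf8 itself had 30, 14, 29 and 14 counts in the Taf8-deleted libraries and 1491, 1383, 1222 and 1403 in the Taf8-intact libraries, so the level of Taf8 fitted the label of every library. The cortical factor gene Emx1 was present in both groups, at 49.9 ± 3.52 CPM in Taf8-deleted and 61.5 ± 4.56 CPM in Taf8-intact cortex (CPM, counts scaled to the TMM-corrected library size; SD, n = 4 each). Emx1 was itself called lower in Taf8-deleted cortex, at -0.30 ± 0.06 (log2 ± SE, edgeR's quasi-likelihood test, adjusted p = 0.0010). In cortex as a whole, fewer cells of a type and less RNA per cell cannot be told apart. Animal numbers differ in their first part between the groups, and whatever this part marks cannot be told apart from the genotype. They were 408.4, 408.5, 408.6 and 409.2 for Taf8-intact and 456.1, 472.1, 477.1 and 486.1 for Taf8-deleted embryos. Taf8-intact replicates 1 to 3 thus share this part, and no Taf8-deleted embryos do. What sharing it means is not stated, and the tests treated all 8 embryos as independent.

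Because TFIID acts at the bases around transcription starts, the stretch just before the start is shown for the genes at the ends of the response, Sox5 with the largest and Tle4 with the smallest fall, and for Hs3st4, with a fall near the middle. Each is the 100 bases before a start listed in RefSeq (GRCm38.p6), 5′ to 3′ on the strand of the gene, none of these stretches holds an annotated exon, and Tle4 has a further listed start that is not shown. Capitals mark GGGCGG or its reverse complement, the GC box.

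Sox5, chr6:143947107-143947206, minus strand: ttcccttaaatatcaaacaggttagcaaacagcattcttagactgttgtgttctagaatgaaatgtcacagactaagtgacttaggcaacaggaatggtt

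Tle4, chr19:14598184-14598283, minus strand: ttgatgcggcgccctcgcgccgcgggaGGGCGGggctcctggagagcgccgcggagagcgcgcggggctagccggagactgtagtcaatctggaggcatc

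Hs3st4, chr7:123982728-123982827, plus strand: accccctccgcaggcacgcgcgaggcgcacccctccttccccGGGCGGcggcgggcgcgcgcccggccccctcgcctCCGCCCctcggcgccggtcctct

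The Sox5 stretch has a G and C content of 37%, against 73% for Tle4 and 85% for Hs3st4, and the median over all 32851 RefSeq windows was 55%. The letters were searched on both strands, and the motifs were TATAAA (the TATA box), CCAAT and GGGCGG, which do not overlap in the matches found. None of the 3 stretches shown held TATAAA or CCAAT, which stood in 5.56% and 18.9% of all windows, and those of Tle4 and Hs3st4 held GGGCGG, which stood in 24.7%. The windows of Fezf2, Bcl11b and Tbr1 hold annotated exon bases of the gene itself and were left out of this count. Their G and C contents were 63%, 42% and 39%, and the Fezf2 window held GGGCGG. Only 6 of the 10 genes had a RefSeq window, and Foxp2, Ldb2, Crym and Zfpm2 had none. The values over all windows were taken without leaving out windows that hold exon bases. Whether these letters go with the size of the fall was not tested. The Sox5 and Hs3st4 stretches lie within the annotated span of the gene, before a start inside it. Sox5 has several starts over its 953863 bases, and which of them the cortex uses cannot be read from gene counts.

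All 10 genes fell in Taf8-deleted cortex, by between 0.23 and 1.15 on the log2 scale (edgeR's quasi-likelihood test, adjusted p of at most 0.0066). This stands against a background in which 32.9% of the 16074 genes tested were called lower. The median log2 fold change of the 10 was -0.75, against 0.00 over all genes tested. TMM scaling places the median of all genes near 0. These values are thus relative to the other genes, and a change in total RNA cannot be read from them. For each of the 10, all Taf8-deleted libraries lay below all Taf8-intact libraries, which held for 30.1% of all genes. In a test for a change beyond 1.5-fold, Sox5, Ldb2, Hs3st4, Bcl11b and Fezf2 were called lower, 5 of the 10, where 5.08% of all genes were called lower.

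**Figure D1:**
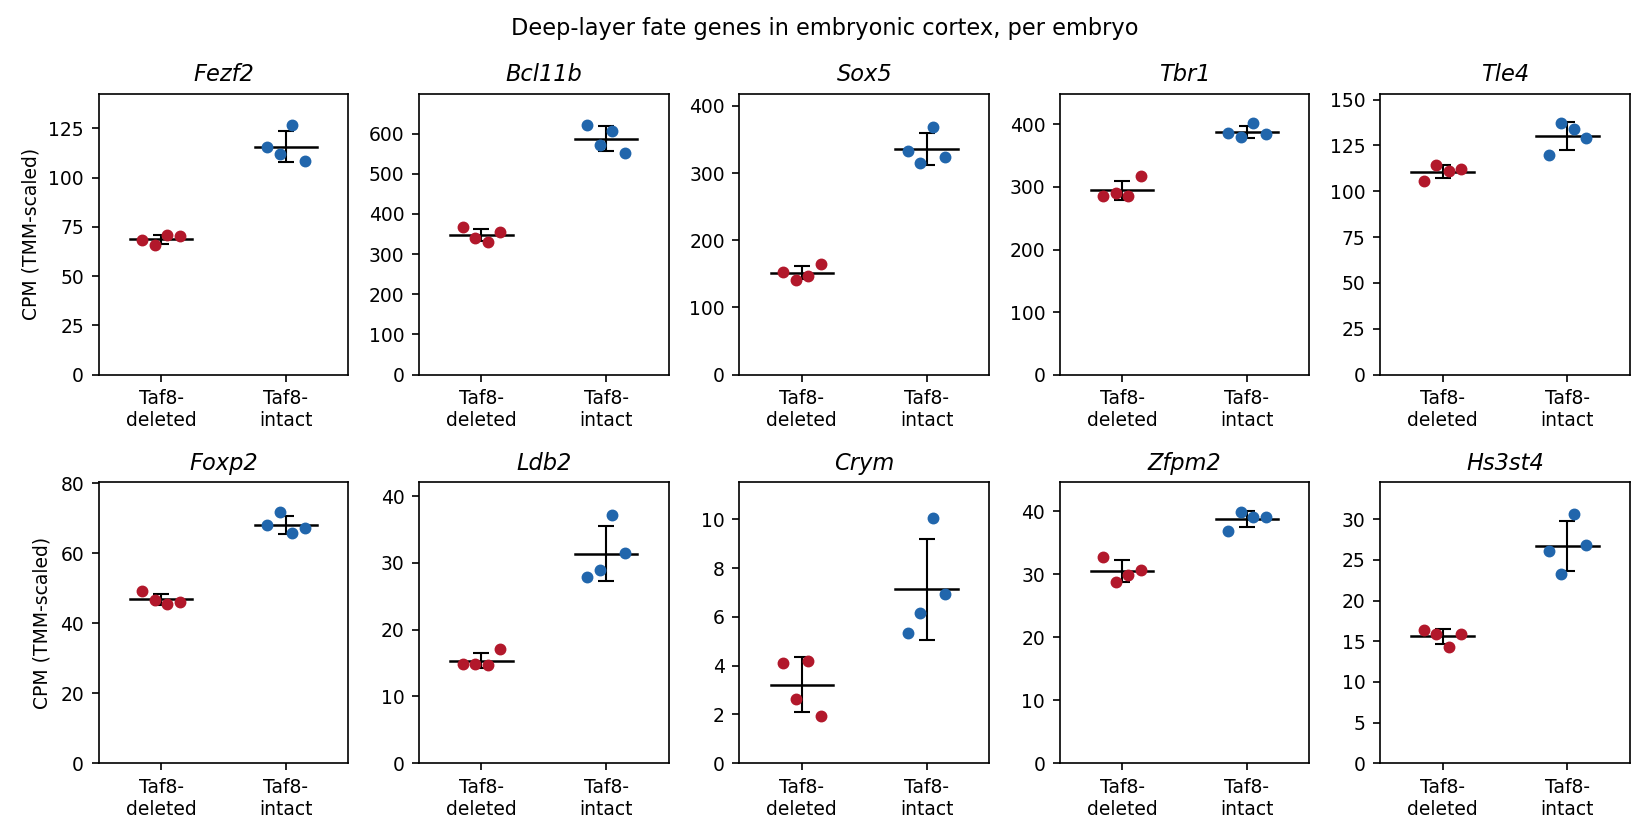
Level of each of the 10 deep-layer fate genes in CPM (TMM-scaled, linear axis from 0), with a point for each embryo, the 4 Taf8-deleted embryos on the left and the 4 Taf8-intact embryos on the right; bars give the mean ± SD. In every panel the Taf8-deleted points lie below the Taf8-intact points, by the widest relative margin for Sox5 and the narrowest for Tle4.

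Among the genes of the subcerebral programme, Fezf2, the zinc finger factor that selects this fate, had 68.3, 65.6, 70.6 and 70.1 CPM in the Taf8-deleted libraries and 115, 112, 127 and 109 CPM in the Taf8-intact libraries. The groups did not overlap, with 38.0 CPM between the highest Taf8-deleted and the lowest Taf8-intact library, and the log2 fold change was -0.75 ± 0.05 (SE), or 59.4% of the intact level (adjusted p = 6.51e-08). Bcl11b, a zinc finger factor needed for the outgrowth of corticospinal axons, had 367, 341, 330 and 354 CPM in the Taf8-deleted libraries and 622, 571, 606 and 553 CPM in the Taf8-intact libraries. It fell by 0.76 ± 0.04 on the log2 scale (adjusted p = 4.33e-08), to 59.2% of the intact level, almost the same proportion as Fezf2.

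Sox5, a SoxD factor that controls the order in which corticofugal neurons are made, fell more than either. It had 153, 141, 147 and 164 CPM in the Taf8-deleted libraries and 333, 315, 369 and 324 CPM in the Taf8-intact libraries. The groups lay far apart, with 151 CPM between the highest Taf8-deleted and the lowest Taf8-intact library. The fall was 1.15 ± 0.06 on the log2 scale, to 45.1% of the intact level (adjusted p = 1.55e-08), and only 1.95% of the genes tested had a lower log2 fold change. The antisense gene Sox5os1 covers 9.25% of the exon bases of Sox5, and without strand its reads cannot be told apart from those of Sox5.

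Ldb2, which encodes a cofactor of LIM domain proteins and marks layer 5 neurons, had 14.8, 14.8, 14.7 and 17.1 CPM in the Taf8-deleted libraries and 27.9, 29.0, 37.1 and 31.5 CPM in the Taf8-intact libraries. It fell by 1.03 ± 0.09 on the log2 scale (adjusted p = 1.55e-06). Ldb2 is also made by endothelial cells, whose markers went the other way: 10 of 11 were higher and none lower in Taf8-deleted cortex, where 30.6% of all genes were called higher, with a median of 0.29, led by the tight junction gene Cldn5 at 0.51 ± 0.08 (log2 ± SE).

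Crym, which encodes a thyroid hormone-binding protein found in subcerebral neurons, was the lowest of the 10 in CPM and the most uneven. It had 4.10, 2.63, 4.20 and 1.92 CPM in the Taf8-deleted libraries and 5.35, 6.15, 10.1 and 6.95 CPM in the Taf8-intact libraries. Its groups did not overlap, but the spread was wide, with coefficients of variation of 34.9% in Taf8-deleted and 29.0% in Taf8-intact cortex, where the other 9 genes had 3.25% to 7.57% and 2.54% to 13.2%. The log2 fold change of -1.14 ± 0.28 (adjusted p = 0.0066) was thus as large as that of Sox5 but far less certain, and in the test for a change beyond 1.5-fold it missed the threshold (adjusted p = 0.111).

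Among the 5 corticothalamic genes, Tbr1, the T-box factor that sets layer 6 identity, had 286, 291, 285 and 317 CPM in the Taf8-deleted libraries and 386, 379, 402 and 385 CPM in the Taf8-intact libraries. It fell by 0.40 ± 0.04 on the log2 scale, to 76.0% of the intact level (adjusted p = 3.04e-06). Tbr1 is also made by Cajal-Retzius cells of the cortical surface. Of 8 markers of these cells, 4 were higher and none lower in Taf8-deleted cortex, where 30.6% of all genes were called higher. The helix-loop-helix factor genes Ebf3 (1.16 ± 0.08) and Ebf2 (1.02 ± 0.12) led them. Reln, Trp73, Ndnf and Calb2 were not called, at 0.08, -0.01, 0.01 and -0.37. The summed level of the 8 overlapped between the groups, at 621 to 708 CPM in the Taf8-deleted and 556 to 714 CPM in the Taf8-intact libraries. Reln made up most of this sum, with means of 523 CPM in Taf8-deleted and 496 CPM in Taf8-intact cortex.

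Tle4, a corepressor of the Groucho family that marks corticothalamic neurons, had 106, 114, 111 and 112 CPM in the Taf8-deleted libraries and 120, 137, 134 and 129 CPM in the Taf8-intact libraries. The groups did not overlap, but only 5.65 CPM lay between the highest Taf8-deleted and the lowest Taf8-intact library. The fall of 0.23 ± 0.04 on the log2 scale, to 85.1% of the intact level, was the smallest of the 10 (adjusted p = 6.40e-04), and 27.9% of all genes tested had a lower log2 fold change. Zfpm2, a zinc finger cofactor of GATA factors, was nearly as little changed. It had 32.8, 28.7, 29.9 and 30.7 CPM in the Taf8-deleted libraries and 36.9, 40.0, 39.1 and 39.1 CPM in the Taf8-intact libraries, a fall of 0.34 ± 0.05 on the log2 scale (adjusted p = 5.01e-05).

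Foxp2, a forkhead factor of layer 6, had 49.1, 46.6, 45.5 and 46.2 CPM in the Taf8-deleted libraries and 68.2, 71.7, 65.7 and 67.1 CPM in the Taf8-intact libraries. It fell by 0.54 ± 0.04 on the log2 scale (adjusted p = 1.92e-07), between the small changes of Tbr1, Tle4 and Zfpm2 and the larger ones of the subcerebral genes. Hs3st4, which encodes a sulfotransferase that modifies heparan sulfate and marks layer 6, had 16.4, 15.8, 14.3 and 15.9 CPM in the Taf8-deleted libraries and 26.1, 23.2, 30.6 and 26.9 CPM in the Taf8-intact libraries. Its fall of 0.78 ± 0.08 (adjusted p = 3.78e-06) was close to that of Fezf2 and Bcl11b. A gene model on the other strand, Gm27040, covers 4.08% of its exon bases.

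Grouped by these roles, the 5 subcerebral genes (Fezf2, Bcl11b, Sox5, Ldb2 and Crym) had log2 fold changes of -1.15 to -0.75 with a median of -1.03, and the 5 corticothalamic genes (Tbr1, Tle4, Foxp2, Zfpm2 and Hs3st4) of -0.78 to -0.23 with a median of -0.40. The ranges touch through Hs3st4, and the difference between these groups of genes was not tested. The longer lists of other genes given further on run the other way, with a median of -0.64 for layer 6 and corticothalamic genes and -0.16 for layer 5 genes. Sox5 could be placed with either group, since it acts in layer 6 and the subplate as well as in layer 5.

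Among the Taf8-intact embryos, replicate 3 had the highest value of 6 of the 10 genes (Fezf2, Sox5, Tbr1, Ldb2, Crym and Hs3st4). It also had the most counts of general neuronal markers, 1.02% of its total against 0.921% to 0.961% in the other Taf8-intact libraries. The part of neuron content in that difference was not tested. Without it, the log2 fold change was -0.93 for Ldb2, -0.93 for Crym and -0.70 for Hs3st4, and all 10 genes were still called lower.

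Per kilobase of the gene length that the authors deposited (RPKM), the 10 genes spanned a wide range and their order changed between the groups. Tbr1 was the highest, at 74.1 ± 3.84 RPKM in Taf8-deleted and 97.6 ± 2.48 RPKM in Taf8-intact cortex (SD, n = 4 each). Bcl11b followed at 43.9 ± 2.01 RPKM in Taf8-deleted and 74.2 ± 3.97 RPKM in Taf8-intact cortex, and Fezf2 at 29.8 ± 0.979 RPKM in Taf8-deleted and 50.2 ± 3.40 RPKM in Taf8-intact cortex. In Taf8-deleted cortex Tle4 came next at 24.3 ± 0.790 RPKM and Sox5 after it at 20.6 ± 1.32 RPKM, whereas in Taf8-intact cortex Sox5 stood at 45.7 ± 3.20 RPKM, above Tle4 at 28.6 ± 1.68 RPKM and short of Fezf2 by less than the sum of their SDs.

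The lower 5 genes had 2.56 to 6.62 RPKM in Taf8-deleted and 5.68 to 11.9 RPKM in Taf8-intact cortex. In Taf8-deleted cortex their order was Foxp2, Zfpm2, Ldb2, Hs3st4 and Crym, and neighbours among Foxp2, Zfpm2, Ldb2 and Hs3st4 differed by less than the sum of their SDs. In Taf8-intact cortex it was Ldb2, Foxp2, Hs3st4, Zfpm2 and Crym, and of these neighbours Foxp2 and Hs3st4 differed by less than the sum of their SDs.

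Because all 10 genes are markers of neurons, their levels were also set against 15 general markers of postmitotic neurons. Of these, 12 were lower and none higher in Taf8-deleted cortex, with a median of -0.39, where 32.9% of all genes were called lower. Tubb3, Elavl3 and Neurod1 were not called, at -0.06, 0.01 and 0.01 on the log2 scale, so the markers did not fall evenly. The neurogenic factor genes Neurod6 and Neurod2 were at -1.33 ± 0.06 and -0.84 ± 0.04, the synapsin gene Syn1 at -0.63 ± 0.04 and the doublecortin gene Dcx, of migrating neurons, at -0.70 ± 0.06 (log2 ± SE). Together these 15 genes held 0.754% to 0.809% of the counts in the Taf8-deleted libraries and 0.921% to 1.02% in the Taf8-intact libraries. When each library was scaled to this sum in place of TMM, the median of all genes tested moved to 0.37, so that 64.9% of genes were called higher and 9.39% lower.

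On that scale the 10 genes separated. Sox5, Crym, Ldb2, Hs3st4, Bcl11b, Fezf2 and Foxp2 were still called lower, 7 of the 10, with log2 fold changes of -0.77 ± 0.05, -0.75 ± 0.28, -0.65 ± 0.07, -0.40 ± 0.07, -0.38 ± 0.06, -0.38 ± 0.05 and -0.17 ± 0.07 (SE, edgeR's quasi-likelihood test). Tbr1 was at -0.02 ± 0.05 and Zfpm2 at 0.03 ± 0.06, neither called (adjusted p = 0.650 and 0.673). Tle4 turned round and was called higher, at 0.14 ± 0.06 (adjusted p = 0.0362). Of the 8 Cajal-Retzius markers, 7 were called higher and none lower on this scale, with a median of 0.56. All 11 endothelial markers were called higher, with a median of 0.66, where 64.9% of all genes were called higher.

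Thus Tbr1 and Zfpm2 differed between the groups in about the same proportion as the summed neuronal markers, whereas Sox5 and Ldb2 were lower by more. Tubb3, Dcx and Map2 made up 20.7%, 19.6% and 13.5% of the sum. With equal weight for each of the 15 markers, an alternative chosen after seeing the data, 5 genes were called lower (Sox5, Ldb2, Hs3st4, Bcl11b and Fezf2) against 7.55% of all genes, and Crym and Foxp2 were not (adjusted p = 0.0561 and 0.172).

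**Figure D2:**
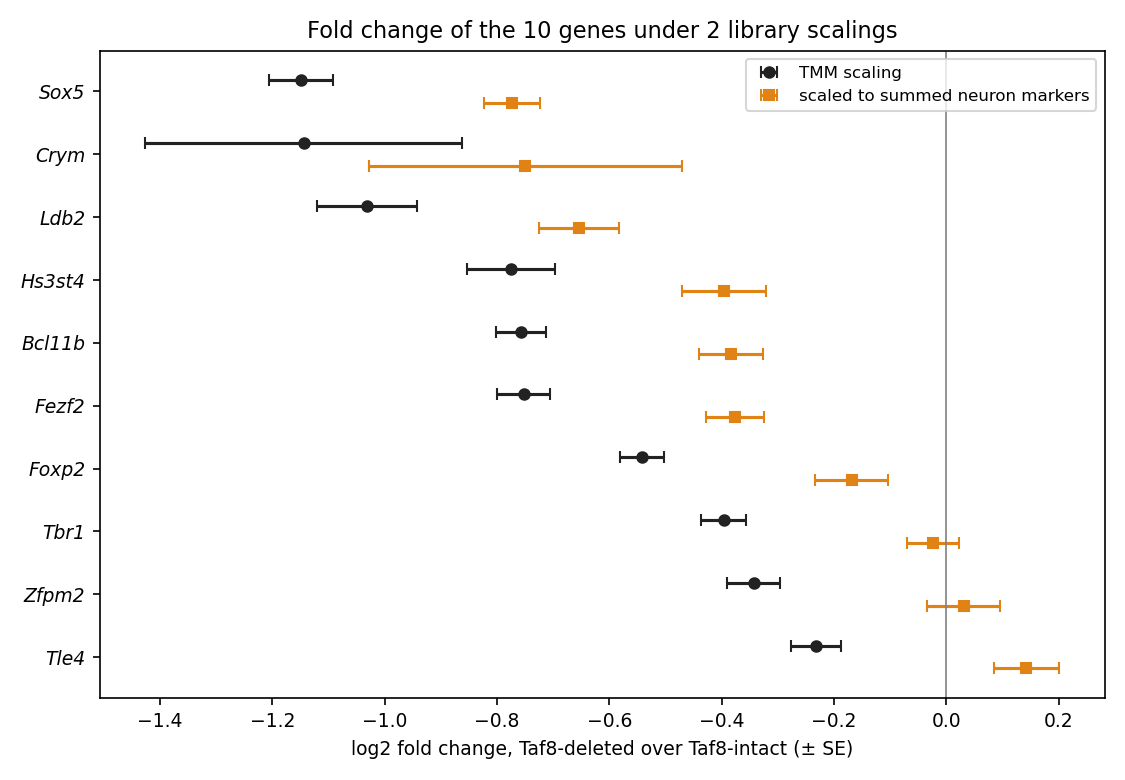
Log2 fold change (Taf8-deleted over Taf8-intact, ± SE) of the 10 genes with TMM scaling (circles) and with libraries scaled to the summed counts of 15 general neuronal markers (squares). With TMM scaling the values run from -1.15 for Sox5 to -0.23 for Tle4; with the neuronal scaling those of Tbr1 and Zfpm2 lie at 0 within their SE and that of Tle4 lies above 0.

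Ratios of raw counts within a library do not depend on any scaling, and 3 were compared between the groups. The ratio of Fezf2 to Tbr1, subcerebral to corticothalamic, was 0.239, 0.226, 0.248 and 0.221 in the Taf8-deleted libraries and 0.299, 0.295, 0.315 and 0.283 in the Taf8-intact libraries. The ratio of Bcl11b to Tbr1 was 1.28, 1.17, 1.16 and 1.11 in the Taf8-deleted libraries and 1.61, 1.505, 1.505 and 1.44 in the Taf8-intact libraries. Both were lower in every Taf8-deleted library than in every Taf8-intact library, by 0.35 and 0.36 on the log2 scale.

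The ratio of Fezf2 to Sox5 went the other way, with 0.447, 0.465, 0.479 and 0.428 in the Taf8-deleted libraries and 0.346, 0.355, 0.343 and 0.335 in the Taf8-intact libraries, a log2 difference of 0.40. Each of the 3 ratios had p = 0.0286 in a two-sided exact permutation test, also 0.0286 after adjustment over these 3, which is the smallest p that 4 against 4 libraries can give.

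**Figure D3:**
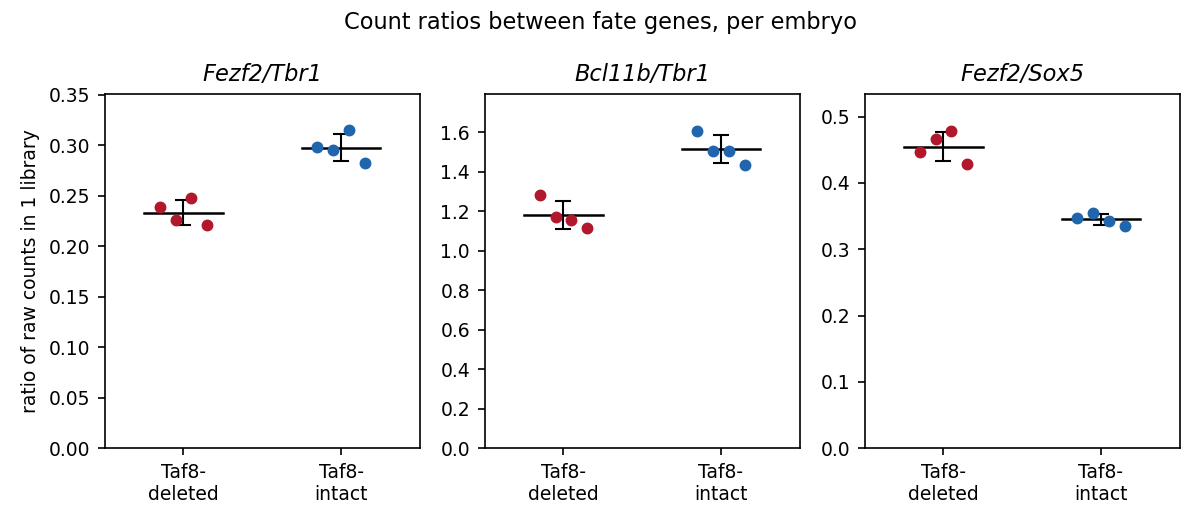
Ratio of the raw counts of 2 genes within each library (linear axes from 0), with a point for each embryo, Taf8-deleted on the left and Taf8-intact on the right; bars give the mean ± SD. The Taf8-deleted points lie above the Taf8-intact points for Fezf2/Sox5 and below them for Fezf2/Tbr1 and Bcl11b/Tbr1, with no overlap in any panel.

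Other genes of the same layers were read in the same fit, in which 32.9% of all genes were called lower and 30.6% higher. Their counts are also given with the scaling to summed neuronal markers, on which 9.39% of all genes were called lower and 64.9% higher. Of 15 other layer 6 and corticothalamic genes, 14 were lower and 1 higher in Taf8-deleted cortex, with a median of -0.64; with the neuronal scaling 9 were lower and 1 higher, with a median of -0.26. The log2 fold change was -0.89 ± 0.04 for Rprm, which encodes a cell cycle inhibitor, -0.96 ± 0.05 for the kainate receptor gene Grik3, -2.53 ± 0.20 for the melanocortin receptor gene Mc4r, -0.56 ± 0.05 for the reelin receptor gene Lrp8 and 0.10 ± 0.03 for Wscd1 (SE). Of 15 other layer 5 genes, 6 were lower and 3 higher, with a median of -0.16, and the balance turned with the neuronal scaling, to 4 lower and 7 higher with a median of 0.21. The log2 fold change was -1.27 ± 0.08 for Pcp4, whose product binds calmodulin, -1.02 ± 0.05 for the potassium channel gene Kcnn2 and -0.67 ± 0.07 for the helix-loop-helix factor gene Bhlhe22 (SE). The adhesion gene Nectin3 and Igfbp4, which encodes a binding protein of insulin-like growth factors, rose by 0.41 ± 0.05 and 0.35 ± 0.05. Other genes share 23.7% of the exon bases of Pcp4 and 8.13% of those of Kcnn2.

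Subplate neurons, the earliest-born neurons of the cortex, which lie beneath the cortical plate, share Sox5 and Tbr1 with layer 6. Of 10 subplate genes tested, 2 were higher and 2 lower, with a median of -0.09, against 6 higher and 1 lower with a median of 0.28 on the neuronal scaling. Cplx3 had at most 2 counts in any library and was not tested. Nxph4, which encodes a neurexophilin, rose to 50.6 ± 1.99 CPM in Taf8-deleted cortex, against 34.7 ± 0.932 CPM in Taf8-intact cortex (SD, n = 4 each). Ccn2, which shares 23.2% of its exon bases with a gene model, was at 0.47 ± 0.13, while the monooxygenase-like Moxd1 and the phosphatase gene Inpp4b were at -1.13 ± 0.19 and -0.64 ± 0.16 (log2 ± SE); with the neuronal scaling Inpp4b was at -0.27 and not called.

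Of 14 callosal and upper-layer genes, 10 were lower and 3 higher, with a median of -0.43, and with the neuronal scaling 6 were lower and 6 higher, with a median of -0.05. The homeodomain factor genes Cux1 and Pou3f2 were at -0.63 ± 0.04 and -0.71 ± 0.05, the cadherin gene Cdh10 at -1.05 ± 0.09 and Inhba, of the activin ligand, at -2.85 ± 0.25 (log2 ± SE). Inhba was barely detected, at 0.167 ± 0.0406 CPM in Taf8-deleted and 1.22 ± 0.231 CPM in Taf8-intact cortex (SD, n = 4 each). Ski, a transcriptional corepressor, and Lhx2, a LIM homeodomain factor, rose by 0.19 ± 0.03 and 0.20 ± 0.05. Of 14 axon guidance and glutamate transporter genes, 10 were lower and 1 higher, with a median of -0.39, and with the neuronal scaling 6 were lower and 4 higher, with a median of -0.02. The semaphorin receptor gene Nrp1 and the vesicular glutamate transporter gene Slc17a7 were at -1.24 ± 0.04 and -1.32 ± 0.06, the adhesion gene Cdh13 at -1.24 ± 0.09 and the Slit receptor gene Robo1 at -0.70 ± 0.05, while the ephrin receptor gene Epha4 rose by 0.09 ± 0.04.

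**Figure D4:**
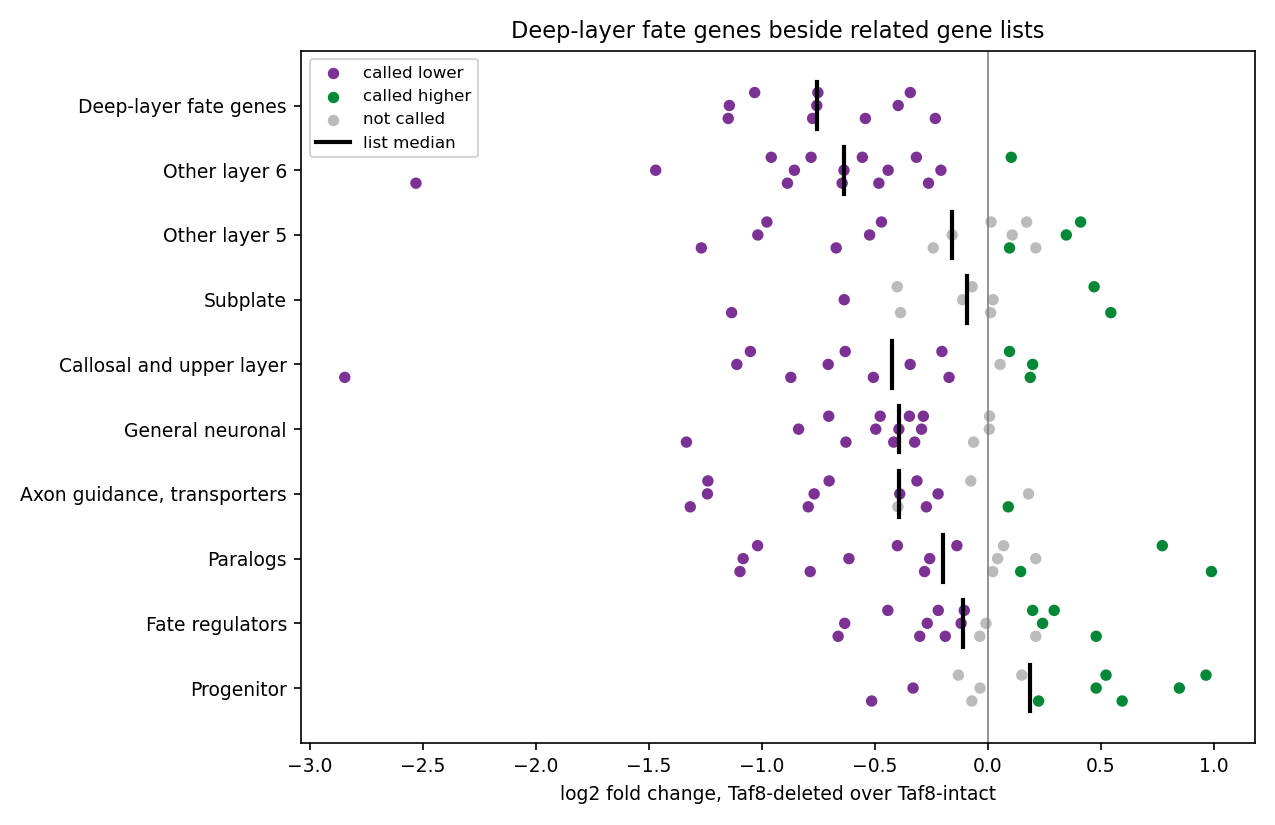
Log2 fold change (Taf8-deleted over Taf8-intact) of each tested gene of 10 lists, a point per gene, coloured by its call in edgeR's quasi-likelihood test, with the list median as a black bar. The medians run from -0.75 for the deep-layer fate genes and -0.64 for other layer 6 genes to -0.16 for other layer 5 genes, -0.09 for subplate genes and 0.19 for progenitor genes; with the neuronal scaling, not drawn, those of layer 5 and subplate genes turned to 0.21 and 0.28, and those of paralogs and fate regulators to 0.18 and 0.26.

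The paralogs of the 10 genes moved in both directions. Of 16, 9 were lower and 3 higher, with a median of -0.20, and the balance turned with the neuronal scaling, to 5 lower and 8 higher with a median of 0.18. Bcl11a was at -0.79 ± 0.04, beside -0.76 ± 0.04 for Bcl11b, and the sulfotransferase genes Hs3st1 and Hs3st2 at -1.10 ± 0.06 and -1.08 ± 0.11, beside -0.78 ± 0.08 for Hs3st4 (log2 ± SE). Of the other SoxD genes, Sox13 rose by 0.77 ± 0.08, and Sox6 was at 0.04 and not called, unlike Sox5; with the neuronal scaling Sox6 was called higher, at 0.42. The Groucho gene Tle3 rose by 0.15 ± 0.04 and the T-box gene Tbx21 by 0.99 ± 0.33. Eomes, another T-box gene, fell as Tbr1 did, at -0.28 ± 0.05, with 224 CPM in Taf8-deleted and 272 CPM in Taf8-intact cortex. With the neuronal scaling Eomes was at 0.09 and not called. Tbx21 was barely detected, at 0.366 ± 0.0756 CPM in Taf8-deleted cortex, against 0.183 ± 0.0743 CPM in Taf8-intact cortex (SD, n = 4 each). These differences between paralogs were not tested as such.

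Of 16 regulators and cofactors of cortical fate, 9 were lower and 4 higher, with a median of -0.11, and the balance turned with the neuronal scaling, to 2 lower and 11 higher with a median of 0.26. The zinc finger factor gene Zeb2 and the corepressor gene Ctbp1 were at -0.66 ± 0.04 and -0.63 ± 0.03, and the area-patterning receptor gene Nr2f1 at -0.44 ± 0.04, or -0.07 and not called with the neuronal scaling. Pax6, of radial glia, and Ctnnb1, of β-catenin, rose by 0.48 ± 0.07 and 0.29 ± 0.03. Of 12 radial glia and progenitor markers, 6 were higher and 2 lower, with a median of 0.19, and with the neuronal scaling 10 were higher and 1 lower, with a median of 0.56. The intermediate filament genes Nes and Vim rose by 0.85 ± 0.06 and 0.59 ± 0.05, and the glial lipid-binding gene Fabp7 and the glutamate transporter gene Slc1a3 were at -0.51 ± 0.06 and -0.33 ± 0.04. With the neuronal scaling Slc1a3 turned to 0.045 and was not called. With TMM scaling Mki67, Top2a, Sox2 and Prom1 were not called, at -0.07, -0.13, 0.15 and -0.03. Nes and Vim had means of 1228 and 909.5 CPM in Taf8-deleted and 682.1 and 602.3 CPM in Taf8-intact cortex. Their differences together exceed that between the mean progenitor sums, so the other progenitor markers, when summed, were not higher in Taf8-deleted cortex. Summed, the progenitor markers had 4591 to 4822 CPM in the Taf8-deleted and 3563 to 4118 CPM in the Taf8-intact libraries. The general neuronal markers had 7338 to 7990 CPM in the Taf8-deleted and 9425 to 10470 CPM in the Taf8-intact libraries. The part of these differences in the falls of the 10 genes was not tested.

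Bcl11b and Foxp2 are also made by striatal neurons, which border the cortex. Of 12 striatal markers tested, 9 were lower and 1 higher, with a median of -0.60, and with the neuronal scaling 6 were lower and 3 higher, with a median of -0.22. The summed level of all 13 listed was 572 to 591 CPM in the Taf8-deleted and 669 to 729 CPM in the Taf8-intact libraries. Meis2 made up most of this sum, with means of 435 CPM in Taf8-deleted and 488 CPM in Taf8-intact cortex, at -0.16 ± 0.04 (log2 ± SE). The dopamine receptor gene Drd1 was at 1.39 ± 0.193 CPM in Taf8-deleted and 6.84 ± 1.37 CPM in Taf8-intact cortex, the tachykinin gene Tac1 at -1.14 ± 0.09, the retinoic acid receptor gene Rarb, which shares 38.4% of its exon bases, at -1.05 ± 0.08 and Ppp1r1b, which is also among the layer 6 genes, at -0.86 ± 0.09 (log2 ± SE). The enkephalin gene Penk rose by 0.31 ± 0.12. Of 13 interneuron markers, 8 were lower and 3 higher, with a median of -0.37, and the balance turned with the neuronal scaling, to 3 lower and 5 higher with a median of 0.00. Gad2, of a GABA-synthesising enzyme, and Lhx6, of a LIM homeodomain factor, were at -1.14 ± 0.05 and -1.04 ± 0.06, and the homeobox gene Dlx6 at 0.77 ± 0.07 (log2 ± SE). Of 8 meningeal and fibroblast markers tested, 5 were higher and none lower, with a median of 1.67, and the sum of all 9 listed was 61.9, 119, 149 and 19.0 CPM in the Taf8-deleted and 26.6, 24.0, 16.4 and 37.8 CPM in the Taf8-intact libraries. Without Taf8-deleted replicates 2 and 3, which had the highest meningeal sums, all 10 deep-layer genes were still called lower, at -1.24 for Crym to -0.26 for Tle4. Striatal and interneuron content was not tested as a part of the result. Among the genes named with the lists, other genes also share 9.05% of the exon bases of Hs3st2 and 13% of those of Neurod1. The shares were 14.3% for Penk, 15.1% for Ctnnb1 and 15.7% for Ppp1r1b.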

How the data were processed

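Polyadenylated RNA of 8 embryonic cortices was made into unstranded TruSeq libraries, per the labels' protocols. The submitters' processing notes name bcl2fastq 1.8.4, Subread 1.5.0, featureCounts and build mm10, without roles; the annotation and the handling of multi-mapping reads are not stated there. The authors deposited whole-number counts per gene and a gene length; the 8 per-embryo files equal the matrix columns. Symbols (25275 of 27179 identifiers) and positions came from RefSeq GRCm38.p6, overlaps from GENCODE (GRCm38). Identifiers without a symbol stayed in the test.

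The test was that of edgeR 4.0.16 (R 4.3.3): filterByExpr, TMM factors (0.971 to 1.03), robust quasi-likelihood test without covariates, Benjamini-Hochberg adjustment over all 16074 genes, threshold 0.05. The SE is the log2 fold change over the root of F. The procedure was tested on simulated counts. Count ratios were compared by exact permutation. Embryos are separate per the labels. The chi-square per gene between libraries of a group was 4.22 to 14.6. The 10 genes, the lists and the tests were chosen with earlier results of these data known. From each list the text names up to 4 genes with the smallest p and up to 2 of the opposite direction. Sox6, Tbx21, Eomes, Emx1 and Meis2 were added after their values were seen. So were the genes named as not called in the neuronal, Cajal-Retzius and progenitor lists. Some genes that the rule names, and a count ratio, are not reported here. No list was tested as a set. Alternatives used other scalings, filters, tools (DESeq2 1.42.0, limma 3.58.1) and subsets of libraries.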

Additional observations from a re-analysis of the deposited data

Results flagged for a closer look

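Of 26 groups of 4 values examined (10 genes and 3 count ratios in each of the 2 groups), 1 had a value far from the others, where chance alone gives about 1 in 20. It was Ldb2 in Taf8-deleted replicate 4, at 17.1 CPM, against 14.7 to 14.8 CPM in the other Taf8-deleted libraries. That library also had the largest share of general neuronal markers of its group, 0.809% of counts against 0.754% to 0.758%. It still lay below every Taf8-intact library, the lowest of which had 27.9 CPM, and without it the log2 fold change of Ldb2 was -1.08. The part of neuron content in this value was not tested.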

How the results depend on the processing

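Under 18 alternatives (3 other size factors, 2 other filters, DESeq2, limma voom without and with quality weights, the replicate block, 8 single libraries left out and Taf8-deleted replicates 2 and 3 left out) all 10 genes stayed called lower, 180 of 180 values. With the neuronal scaling Tle4 turned to 0.14 and Zfpm2 to 0.031, and 7 genes stayed lower; with equally weighted markers Tle4 was at 0.21, Zfpm2 at 0.095 and Tbr1 at 0.041, and 5 stayed lower, because the scale itself moved by 0.37 and 0.44. Against a 1.5-fold change 5 of the 10 genes, 32 context genes lower and 6 higher, and 816 genes lower and 932 higher of all genes were called, a stricter question by construction. Without Taf8-deleted replicates 2 and 3, 25 context genes were called higher in place of 43.

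The labels do not say that replicate numbers pair the embryos. Deviations of same-numbered libraries from their group means had correlations of -0.23, 0.01, 0.00 and -0.46. With means of only 4 libraries, these values cannot settle whether pairs exist. With the replicate number as a block the 10 genes were all called lower. For the ratios, pairing by number left the log2 differences at -0.36 (Bcl11b/Tbr1), 0.40 (Fezf2/Sox5) and -0.35 (Fezf2/Tbr1) with an exact p = 0.125, the smallest that 4 pairs allow. With 1 library left out they ranged from -0.40 to -0.33, 0.37 to 0.43 and -0.38 to -0.33, without Taf8-deleted replicates 2 and 3 they were -0.34, 0.34 and -0.37, and without Taf8-intact replicate 3 and Taf8-deleted replicate 4, chosen after seeing the data, -0.33, 0.42 and -0.30; none of these smaller exact tests can reach 0.05. Counts cover the whole gene, so isoforms of Sox5 or Foxp2 were not analysed here.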
